A study of Mus musculus with 15 samples.

Results

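The Bcl2 family genes Bcl2, Bcl2l1, Mcl1, Bax, Bad, Bid, Bnip3 and Bnip3l were followed in mouse left ventricle through the probe sets that the platform annotation assigns to the symbol of 1 of these 8 genes alone. The rule found 10 probe sets for 6 genes, among 10833 probe sets for 8251 genes that carry a single symbol on the array. Bcl2 had 3 probe sets, Bcl2l1 and Bad had 2 each, and Mcl1, Bid and Bnip3 had 1 each. Bax had none in the annotation table, and the probe set of Bnip3l carries a second symbol as well, so these genes were not analysed here.

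The series concerns cardiac hypertrophy under pressure overload, and total RNA of the left ventricle was read on 15 one-colour oligonucleotide arrays. The labels give 3 female hearts and 3 male hearts that underwent the operation called TAC, and 3 female and 6 male hearts of sham controls. The sources used here do not give strain, age, time after the operation or whether each array is a separate animal, so the p-values below reflect no more than the spread among these arrays, which may be technical. In ventricle tissue read in bulk, a lower level can come from fewer cells of a type or from less RNA in each cell, and these cannot be told apart.

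Proteins of this family decide whether the outer membrane of the mitochondrion stays closed. Bcl2, Bcl2l1 (Bcl-xL) and Mcl1 hold the pore formers Bax and Bak1 in check, and BH3-only proteins such as Bad and Bid release that hold, after which cytochrome c leaves the mitochondrion and caspases are activated. Bnip3 and Bnip3l are distant relatives in the outer membrane that mark mitochondria for removal by autophagy, and Bnip3 is a well-known target of hypoxia-inducible factors. In the heart, whose muscle cells are scarcely replaced, the balance of these proteins is studied as a determinant of cell loss, and in mice removal of Mcl1 from the heart muscle causes heart failure.

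No member of the family passed the test between TAC and sham hearts. Bnip3 had the largest difference, with an intensity 1.29-fold higher in TAC hearts (95% interval 1.07 to 1.56), but its adjusted p of 0.420 in limma did not pass the threshold of 0.05. For the other 7 tested probe sets, those of Bcl2, Bcl2l1, Mcl1 and Bad, the 95% intervals of the averaged TAC effect all included no change and together ran from 0.773-fold to 1.28-fold.

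Heart muscle and the response to the operation were checked with other genes. All 8 ventricular cardiomyocyte markers on the array were above the floor of 20 intensity units described below. Their averaged log2 changes ran from -0.52 ± 0.13 for Ryr2 (SE, adjusted p = 0.166 in limma) to 0.10 ± 0.09 for Actc1 (SE). Myh6 had -0.32 ± 0.13 and Tnni3 -0.27 ± 0.13 (SE), and none of the 8 passed. The atrial markers Myl7 and Myl4 ran from 42.2 to 257 and from 31.3 to 269 over the arrays, and the part of atrial tissue was not tested. Of 5 hypertrophy check genes, Nppa, Acta1 and Ankrd1 passed as higher in TAC hearts. Nppb, with a log2 change of 1.18 ± 0.29 (SE, adjusted p = 0.125 in limma), and Myh7, with 0.03 ± 0.08 (SE, adjusted p = 0.948), did not pass. Nppa, the gene of atrial natriuretic peptide, had a log2 change of 2.83 ± 0.22 (SE, adjusted p = 1.29e-06 in limma). Array medians ran from 21.3 to 26.7 intensity units. The female TAC 1 array stood apart in having the lowest median and in 5 probe sets that were below 20 there but at 80 or more on each of the other 14 arrays, where the other arrays had 0 or 1 such probe sets.

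Intensities are deposited values in arbitrary units. For the test, values below 20 were set to 20, log2 was taken, and only the brightest 60% by mean value were tested, 7453 probe sets in all. Of the 10 member probe sets 8 were tested. The TAC effect is the mean log2 value of TAC hearts minus that of sham hearts, worked out for each sex and then averaged. In the averaged effect limma called 0 of 8 member probe sets, beside 0.322% of all tested probe sets. At an unadjusted p under 0.05 there was 1 member probe set, that of Bnip3, beside 7.51% of all probe sets in either direction and 2.86% in its own direction. Their median log2 change was -0.05, against -0.03 over all tested probe sets, and 3 of the 8 were above 0 where 41.8% of all were.

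**Figure D1:**
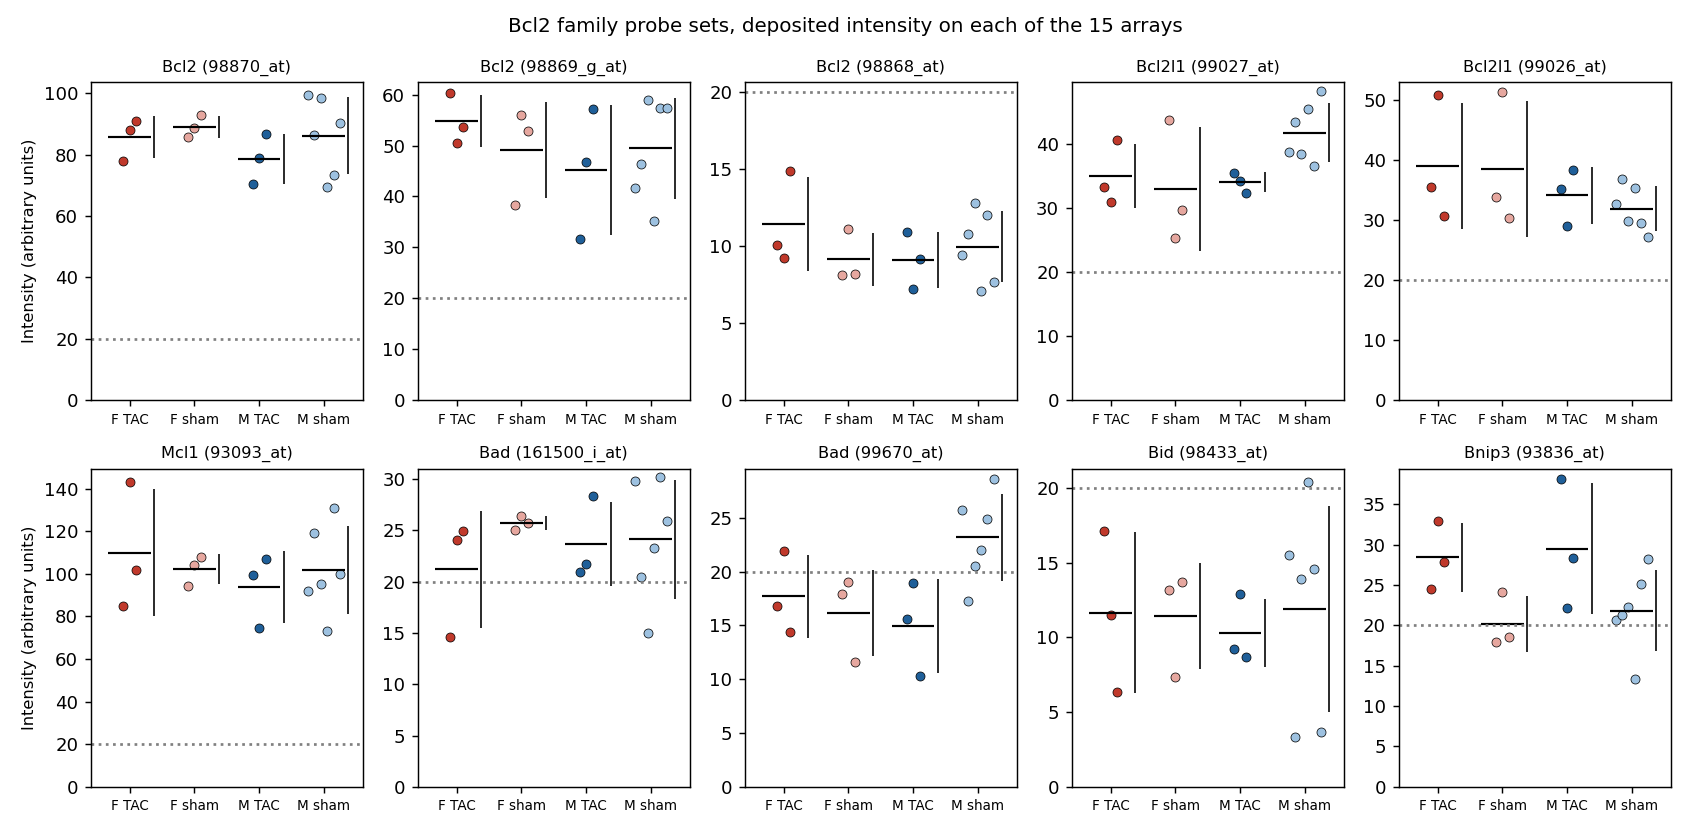
Deposited intensity (arbitrary units, linear axes from 0) of the 10 member probe sets on each array, with F for female and M for male hearts. Each point is 1 array, the horizontal bar is the group mean, the vertical bar is ± 1 SD, and the dotted line is the floor of 20. All 6 TAC points of Bnip3 lie above the floor, whereas those of Bid and of Bcl2 98868_at lie below it.

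Among the pro-survival members, Bcl2 was read best by probe set 98870_at. Its intensity was 78.0, 88.2 and 91.1 in female TAC hearts, against 85.7, 88.8 and 92.8 in female sham hearts. In male TAC hearts it was 70.3, 78.9 and 86.6, against a lowest, median and highest value of 69.5, 88.2 and 99.6 in male sham hearts. The groups overlapped in both sexes, and the log2 change was -0.09 ± 0.10 (SE, 95% interval -0.31 to 0.13, adjusted p = 0.890 in limma).

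The second Bcl2 probe set, 98869_g_at, had a change close to 0. It read 60.4, 50.5 and 53.6 in female TAC hearts, against 38.3, 56.0 and 52.9 in female sham hearts. In male TAC hearts it read 31.6, 46.8 and 57.1, against 35.2, 51.9 and 58.9 as lowest, median and highest in male sham hearts. The averaged log2 change was 0.01 ± 0.15 (SE, adjusted p = 0.992 in limma), made of 0.18 ± 0.23 in females and -0.15 ± 0.20 in males. Single arrays moved these values: the female change was 0.007 without female sham 1 and 0.28 without female sham 2, the male change was 0.09 without male TAC 4, and the averaged change was -0.02 without female TAC 1. The dimmest of the 3, 98868_at, lay between 7.08 and 14.9 on all 15 arrays, under the floor, and gave no value to compare.

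Mcl1, a short-lived pro-survival protein, varied widely within groups. Its intensity was 84.9, 143 and 102 in female TAC hearts, against 94.5, 104 and 108 in female sham hearts. Male TAC hearts had 99.3, 74.7 and 107, against 73.2, 97.8 and 131 as lowest, median and highest in male sham hearts. The lowest group mean was 93.6 ± 16.8 (SD, n = 3), that of male TAC hearts, and the highest was 110 ± 30 (SD, n = 3), that of female TAC hearts. The log2 change was -0.02 ± 0.14 (SE, 95% interval -0.32 to 0.29, adjusted p = 0.991 in limma), and without female TAC 1 it was 0.07 ± 0.15. The female change was 0.08 ± 0.22 with that array and 0.25 ± 0.23 without it.

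Bcl2l1, which encodes the survival protein Bcl-xL, was read by 2 probe sets whose changes in males had opposite signs. Probe set 99027_at read 35.5, 34.2 and 32.4 in male TAC hearts, against 36.5, 41.0 and 48.2 as lowest, median and highest in male sham hearts. Every male TAC value was thus below every male sham value, as held for 1.54% of all tested probe sets in this direction. The difference in males was -0.29 ± 0.16 on the log2 scale (SE, adjusted p = 0.871 in limma). The exact two-sided permutation test over the 84 arrangements of the male arrays gave p = 0.0238. The smallest p it can give is 0.0119, and no adjustment for the number of probe sets was made. For the same probe set the permutation p was 0.7 in females, where 0.1 is the smallest, and 0.546 for the averaged effect.

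In females the same probe set read 33.3, 31.0 and 40.6 in TAC hearts, against 43.8, 25.3 and 29.7 in sham hearts, with a log2 change of 0.12 ± 0.18 (SE). The female TAC effect minus the male one was 0.40 ± 0.24 (SE) and did not pass (adjusted p = 1.00 in limma). Female sham hearts were below male sham hearts by a log2 difference of -0.38 ± 0.16 (SE, unadjusted p = 0.0317, adjusted p = 0.974 in limma), beside 1.40% of all probe sets that were lower at an unadjusted p under 0.05. The male sham arrays enter both the male TAC effect and this sex difference. Both values depended on single female sham arrays: the sex difference was -0.21 without female sham 2 and -0.60 without female sham 1, and the female minus male TAC effect was 0.23 and 0.63 without the same arrays.

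The other Bcl2l1 probe set, 99026_at, read 35.2, 28.9 and 38.2 in male TAC hearts, against 27.2, 31.2 and 36.8 as lowest, median and highest in male sham hearts. Here the male groups overlapped and the log2 change was 0.10 ± 0.18 (SE, adjusted p = 0.980 in limma). In female TAC hearts it read 35.4, 50.8 and 30.7, against 33.8, 51.3 and 30.3 in female sham hearts. The highest array of each female group, TAC 2 and sham 2, carried the same replicate number.

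The probe sets of a gene were also set against each other over the 15 arrays, for the 3 pairs with both tested. For Bcl2l1 Pearson's r was -0.567 (permutation p = 0.0274, adjusted over the 3 pairs 0.0716) and Spearman's rho was -0.400 (permutation p = 0.142, adjusted 0.272). Without the 2 arrays farthest from the median of 99027_at r was -0.200, so the relation rests on those arrays. For Bcl2 r was 0.444 (permutation p = 0.0962, adjusted 0.0962) and rho was 0.304 (permutation p = 0.272, adjusted 0.272), and r was -0.167 without the 2 farthest arrays. For Bad r was 0.514 (permutation p = 0.0477, adjusted 0.0716) and rho was 0.353 (permutation p = 0.194, adjusted 0.272), and r was 0.494 without the 2 farthest arrays. None of the 3 pairs passed after adjustment.

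**Figure D2:**
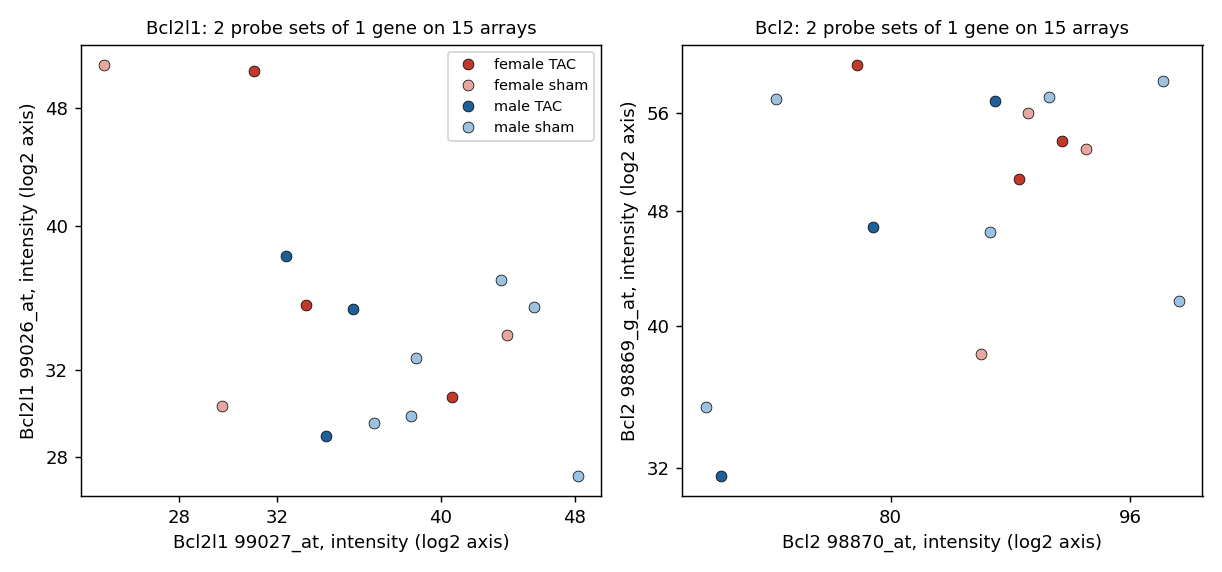
Intensity of the 2 tested probe sets of Bcl2l1 (left) and of Bcl2 (right) plotted against each other, with both axes on a log2 scale and 1 point per array. The arrays that are high for Bcl2l1 99026_at, female TAC 2 at 50.8 and female sham 2 at 51.3, are low for 99027_at, at 31.0 and 25.3.

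Of the BH3-only members, Bad lies downstream of survival kinases, whose phosphorylation keeps it away from Bcl2 and Bcl-xL. Its probe set 161500_i_at read 14.6, 24.1 and 24.9 in female TAC hearts, against 25.0, 26.4 and 25.7 in female sham hearts. The female TAC values were all lower, by a narrow gap, as for 5.74% of all tested probe sets in this direction. Male TAC hearts had 20.9, 21.7 and 28.4, against 15, 24.6 and 30.2 as lowest, median and highest in male sham hearts, and these overlapped. The log2 change was -0.17 ± 0.18 in females and -0.07 ± 0.16 in males (SE), and averaged it was -0.12 ± 0.12 (SE, adjusted p = 0.878 in limma). The value of 14.6 came from female TAC 1, without which the female change was -0.07 ± 0.20 and the averaged change -0.07 ± 0.13.

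The second Bad probe set, 99670_at, was below the floor on 9 of the 15 arrays. Its mean log2 value was 4.55 in male sham hearts but 4.32 to 4.37 in the other groups, so it passed the filter through male sham. Without male sham 9 it was not among the tested probe sets. The male values below therefore compare the group that let it in, and they are no support for a difference. It read 15.6, 18.9 and 10.3 in male TAC hearts, all under the floor, against 17.3, 23.5 and 28.6 as lowest, median and highest in male sham hearts, where 1 of 6 was under it. With the floor the male change was -0.23 ± 0.13 (SE, adjusted p = 0.871 in limma), and the exact two-sided permutation p was 0.0833. With a floor of 3.09 intensity units, the 10th percentile of all values, the male change was -0.66 (adjusted p = 0.608 in limma) and the exact permutation p 0.0238. With that floor the exact permutation p was 0.7 in females and 0.227 for the averaged effect. None of these permutation p-values is adjusted for the number of probe sets or settings. In female TAC hearts it read 16.8, 21.9 and 14.4, against 17.9, 19.0 and 11.6 in female sham hearts. The averaged change was -0.09 ± 0.10 (SE, adjusted p = 0.881 in limma).

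Bid, which is cut by an initiator caspase and carries the signal of death receptors to the mitochondrion, was not measurable in these hearts. Its probe set lay between 3.32 and 20.4 on the 15 arrays and passed the floor on 1 of them, male sham 7. It was not among the tested probe sets. With the floor all but 1 of its values were equal, so a permutation test on that scale carries no information.

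Bnip3 is the mitophagy receptor among the followed genes that could be measured. Its intensity was 24.5, 32.9 and 27.8 in female TAC hearts, against 17.9, 24.1 and 18.5 in female sham hearts. All female TAC values were above all female sham values, with a gap of 24.5 to 24.1 between the nearest arrays, as for 3.14% of all tested probe sets in this direction. In male TAC hearts it was 38.1, 22.1 and 28.3, against 13.3, 21.8 and 28.2 as lowest, median and highest in male sham hearts. The male groups overlapped, with male TAC 5 among the sham values.

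The averaged log2 change of Bnip3 was 0.37 ± 0.13 (SE), which placed it 175th of 7453 by the size of the moderated t statistic. Its unadjusted p was 0.00990 and its adjusted p 0.420 in limma. The exact two-sided permutation test over the 1680 arrangements within the sexes gave p = 0.00833 for this probe set alone, before any adjustment for the number of probe sets. The change was 0.40 ± 0.19 in females (unadjusted p = 0.0523, adjusted p = 1.00 in limma) and 0.34 ± 0.17 in males (unadjusted p = 0.0586, adjusted p = 0.825 in limma). The male change was 0.14 without male TAC 4 and 0.53 without male TAC 5. The female change ran from 0.29 without female TAC 2 to 0.51 ± 0.21 without female TAC 1, where its unadjusted p was 0.0306 and its adjusted p 1.00 in limma. The female TAC effect minus the male one, 0.06 ± 0.26 (SE), had a 95% interval of -0.48 to 0.61.

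Bnip3 was dim, and 0 of the 6 TAC arrays but 3 of the 9 sham arrays lay under the floor, which makes its difference smaller than in the deposited values. With the floor at 3.09 intensity units the log2 change was 0.47 ± 0.17 (adjusted p = 0.502 in limma). Its direction held in all 24 alternative settings in which it was tested, and it was called in none of them. Some of these settings alter the p-value alone and could not turn the direction. Without female TAC 1 the averaged change was 0.42 ± 0.14 (adjusted p = 0.327 in limma).

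**Figure D3:**
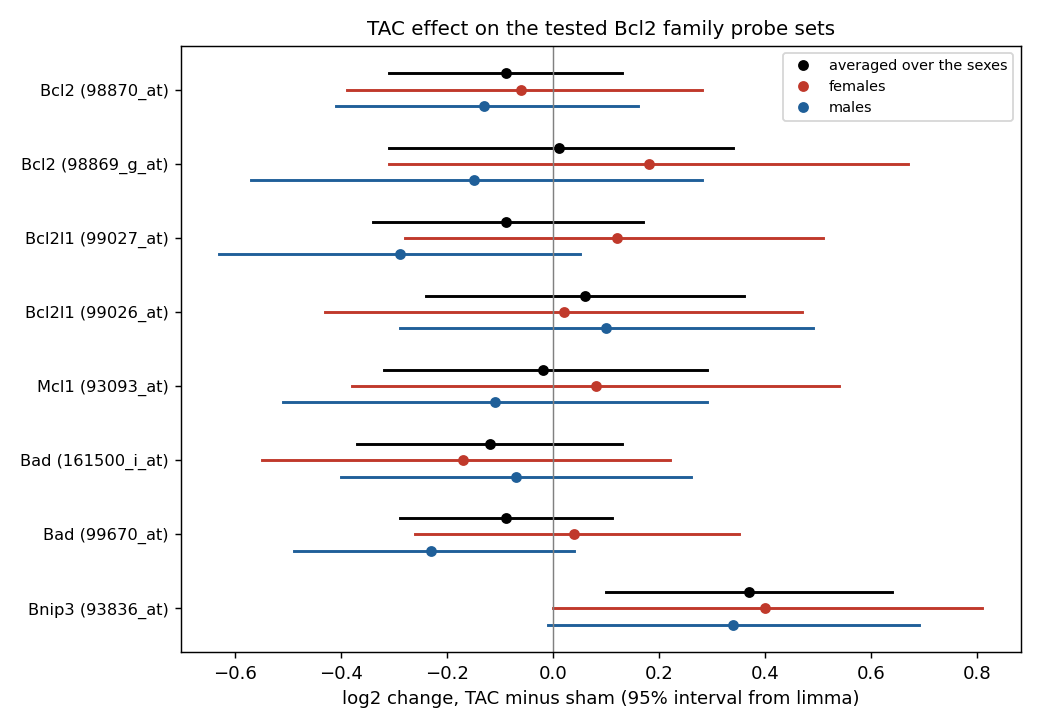
The log2 change (TAC minus sham) of the 8 tested member probe sets with its 95% interval from limma, averaged over the sexes (black), in females (red) and in males (blue). The averaged interval of Bnip3, 0.10 to 0.64, lies above 0, whereas the other 7 averaged intervals include 0.

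The region before the start site is shown for Bnip3, as the member with the largest difference, and for Bcl2 and Mcl1, as pro-survival members whose intervals included 0. These are the 250 bases before an annotated RefSeq start in GRCm38.p6, written 5′ to 3′ in the direction of transcription. They lie at chr7:138909507-138909756 (minus strand) for Bnip3, chr1:106714291-106714540 (minus strand) for Bcl2 and chr3:95658471-95658720 (plus strand) for Mcl1. The Mcl1 window lies inside the annotated span of the gene, chr3:95656944-95663179, so its start is not the outermost. Capitals mark matches on either strand to ACGTG, a form of the core of the element bound by hypoxia-inducible factors. The other form, GCGTG, is not marked.
Bnip3: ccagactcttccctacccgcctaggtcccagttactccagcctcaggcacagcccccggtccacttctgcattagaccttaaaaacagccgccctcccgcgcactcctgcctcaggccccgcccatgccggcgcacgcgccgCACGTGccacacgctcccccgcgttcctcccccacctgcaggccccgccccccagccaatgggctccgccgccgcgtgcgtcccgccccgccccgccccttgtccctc
Bcl2: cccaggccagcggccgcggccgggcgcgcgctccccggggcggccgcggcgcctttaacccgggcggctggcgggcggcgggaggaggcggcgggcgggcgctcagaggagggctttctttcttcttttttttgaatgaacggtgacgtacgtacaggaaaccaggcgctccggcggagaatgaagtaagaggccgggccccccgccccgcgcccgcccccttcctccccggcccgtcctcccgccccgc
Mcl1: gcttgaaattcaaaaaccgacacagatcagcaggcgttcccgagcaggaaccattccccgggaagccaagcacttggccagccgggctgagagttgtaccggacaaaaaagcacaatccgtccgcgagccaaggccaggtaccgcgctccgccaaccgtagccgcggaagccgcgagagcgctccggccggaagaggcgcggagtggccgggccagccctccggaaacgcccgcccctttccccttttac
In the Bnip3 window ACGTG occurs on both strands as overlapping matches from position -108 to -103, counted from the start site. This stretch, CACGTG, reads the same on both strands, so the matches are a single site. ACGTG occurs in 16.6% of 32851 windows of this length in the same table, and it was not found in the windows of the other 5 member genes with a probe set. The other form of the core, GCGTG, was not counted. On either strand it also stands in windows of Bnip3, Bad and Bcl2l1. A second motif, GTAAACA, the sequence bound by FoxO factors, was in 3.17% of all windows and in none of the members' windows. The last motif, TGACG, the core of the cyclic AMP response element, was in 17.8% of all windows and in that of Bcl2, from position -107 to -103. A match describes the letters of the window and no binding was measured.

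Over all members, the comparisons within each sex gave no call either. In females limma called 0 of 8 member probe sets, beside 0.0805% of all, and in males 0 of 8, beside 0.134% of all. The median log2 change of the 8 was 0.06 in females, against -0.04 over all probe sets, and -0.12 in males, against -0.01 over all. When the female TAC effect was set against the male one, and when female sham hearts were set against male sham hearts, 0 of 8 were called, and 0% of all probe sets. The members with an unadjusted p under 0.05 were 0 in females, 0 in males, 0 for the TAC effect in females against males and 1 in the sex difference of sham hearts, Bcl2l1 99027_at. Over all 7453 tested probe sets the counts were 342, 462, 191 and 351 in the same order. When all 6 TAC arrays were set against all 9 sham arrays, no tested member had groups that did not overlap, beside 0.416% of all tested probe sets.

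The other genes of the death pathway were read from 7 lists with 74 tested genes, each gene by its brightest tested probe set. In the averaged effect 35 were above 0 and 39 below, 0 passed the test, and their median log2 change was -0.03, the same as over all 5660 tested genes. At an unadjusted p under 0.05 there were 7, or 9.46%, beside 7.79% of all tested genes.

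Among the 7 further family members that were tested, 4 were above 0 and 3 below, with a median of 0.02. Bak1, the partner of Bax in pore formation, had an averaged log2 change of 0.31 ± 0.12 (SE, adjusted p = 0.546 in limma). It averaged 32.6 ± 1.4 in male TAC hearts and 22.2 ± 4.5 in male sham hearts (SD, n = 3 and 6). In females it averaged 29.2 ± 7.6 in TAC hearts and 26.6 ± 1.3 in sham hearts (SD, n = 3 each). Bak1 was near the floor, with a lowest sham value of 15.4 and 1 array under it. Bcl2l11 (Bim), a BH3-only protein that binds all pro-survival members, had -0.29 ± 0.11 (SE, adjusted p = 0.524 in limma). It averaged 40.3 ± 9.9 in female TAC hearts and 51.5 ± 4.1 in female sham hearts, and 37.4 ± 6.4 in male TAC hearts and 42.9 ± 3.2 in male sham hearts (SD, n = 3 each but 6 for male sham).

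Of 21 caspase, apoptosome and nuclease genes 19 were on the array and 10 bright enough to test, of which 6 were above 0 and 4 below, with a median of 0.01. Cycs, the cytochrome c whose release starts the caspase cascade, had -0.23 ± 0.16 (SE), and Aifm1, a flavoprotein of the space between the mitochondrial membranes, had -0.25 ± 0.16 (SE). The adjusted p was 0.803 and 0.789 in limma. In the list of apoptosis inhibitors and Bcl2 partners 5 of 11 were above 0, and Bag3, a co-chaperone of striated muscle, had 0.29 ± 0.13 (SE, adjusted p = 0.607). Bnip2 had -0.38 ± 0.23 (SE, adjusted p = 0.762), which was -0.07 without female TAC 1.

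Death receptors and their adaptors were above 0 in 5 of 10 cases, with a median of 0.01. Cradd, an adaptor that binds caspase 2, had -0.31 ± 0.13 (SE, adjusted p = 0.606 in limma), and Fadd, the adaptor of the Fas receptor, had 0.19 ± 0.14 (SE, adjusted p = 0.812). Genes of the outer membrane and the permeability transition were above 0 in 3 of 10 cases, with a median of -0.07. Ppif, the cyclophilin of the mitochondrial matrix, had -0.21 ± 0.11 (SE, adjusted p = 0.712), and Tspo, an outer membrane protein, had 0.18 ± 0.10 (SE, adjusted p = 0.740). Among upstream kinases and transcription regulators 6 of 14 were above 0, with E2f1 at -0.38 ± 0.17 (SE, adjusted p = 0.611) and Akt1, a kinase that phosphorylates Bad, at -0.22 ± 0.11 (SE, adjusted p = 0.696). Cradd was under the floor on 6 of the 15 arrays and E2f1 on 4.

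The autophagy list, which holds the machinery that Bnip3 feeds into, had 6 of 12 genes above 0 and a median of -0.06, and it contained the 2 smallest p-values of the 74 genes. Sqstm1 (p62), the receptor that carries ubiquitinated cargo into autophagosomes, had a log2 change of 0.52 ± 0.15 (SE, adjusted p = 0.229 in limma). It averaged 445 ± 41 in female TAC hearts and 322 ± 31 in female sham hearts (SD, n = 3 each). In males it averaged 519 ± 166 in TAC hearts and 341 ± 65 in sham hearts (SD, n = 3 and 6). It was called with array weights (adjusted p = 0.0259) and without male TAC 6 (adjusted p = 0.0452), but in none of the other 23 alternatives. Gabarapl1, a ubiquitin-like protein of the autophagosome membrane, had 0.46 ± 0.15 (SE, adjusted p = 0.402), with 107 ± 22 in female TAC hearts and 87.4 ± 12.8 in female sham hearts (SD, n = 3 each), and 106 ± 18 in male TAC hearts and 69.2 ± 16.4 in male sham hearts (SD, n = 3 and 6).

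**Figure D4:**
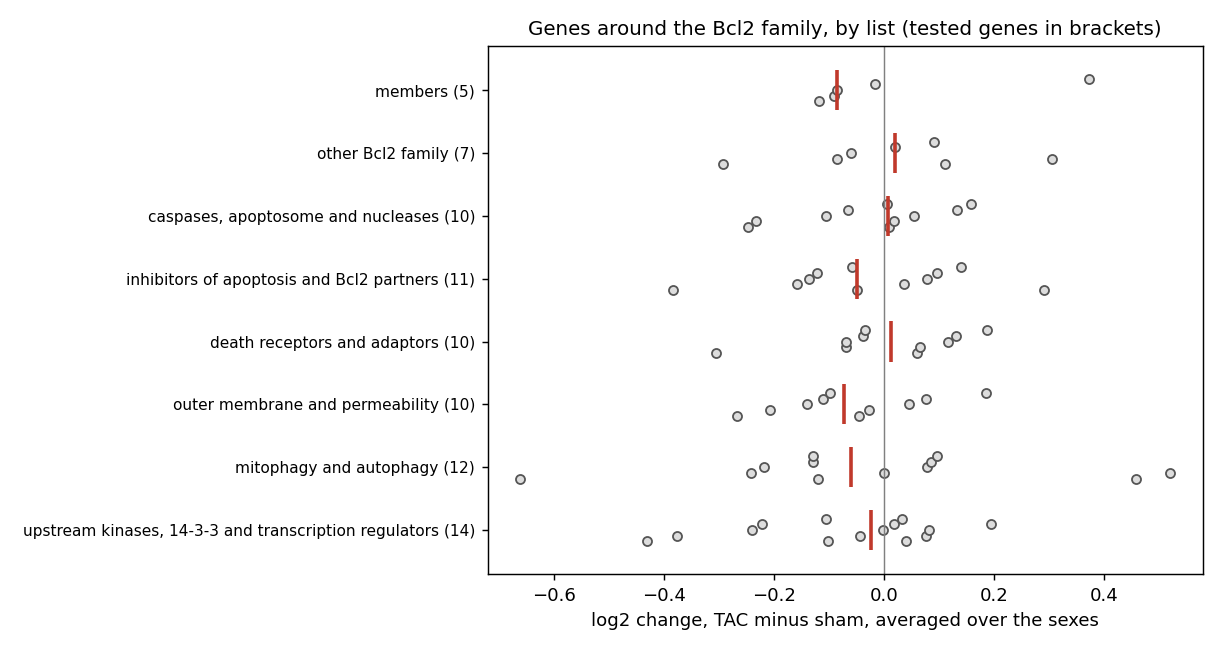
Averaged log2 change (TAC minus sham) of each tested gene, read from its brightest tested probe set, for the members and the 7 lists around them. Each point is 1 gene, the red bar is the median of the list, and the number of tested genes stands in brackets. The medians lie between -0.09 for the members by gene and 0.02 for the further family members, and the point farthest left, Gabarap at -0.66, rests on female TAC 1.

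Markers of other cells were read beside the members. The summed intensity of the 6 fibroblast markers was 1440 to 2240 in female TAC hearts and 1420 to 1490 in female sham hearts, and 1650 to 1940 in male TAC hearts and 1140 to 1540 in male sham hearts. Most of this sum was Dcn, with means of 1200 and 1220 in female and male TAC hearts and 878 and 814 in sham hearts. The averaged log2 change was 0.51 for Dcn, 0.44 for Col1a1, 0.38 for Col3a1 and 0.11 for Pdgfra, but -0.03 for Col1a2 and for Ddr2. No fibroblast marker passed the test, and the part of these cells in the difference of Bnip3 was not tested. The 6 leukocyte and macrophage markers summed to 274 to 309 in female TAC hearts, 287 to 301 in female sham hearts, 270 to 282 in male TAC hearts and 270 to 314 in male sham hearts. Ptprc and Adgre1, which define leukocytes and macrophages, were under the floor on all arrays. The 3 red blood cell markers on the array summed to 794 to 1150 in female TAC hearts, 839 to 1500 in female sham hearts, 1190 to 1500 in male TAC hearts and 888 to 1380 in male sham hearts.

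For each tested member, the gene most like it was found from its deviations from the group means on the 15 arrays, by Pearson's r over the brightest probe set of each tested gene. The values describe these arrays, and each is the highest correlation among all other tested genes. Mcl1 was closest to Rbbp7, a histone-binding protein, with r = 0.972 and a Spearman's rho of 0.961. Bnip3 was closest to Mthfd2, a mitochondrial enzyme of folate metabolism, with r = 0.876 and rho = 0.846, although Mthfd2 was under the floor on 4 arrays. Bcl2 was closest to Tsc1 (r = 0.872, rho = 0.732), Bcl2l1 to Igfbp4 (r = 0.859, rho = 0.804) and Bad to Alpl (r = 0.835, rho = 0.825).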

How the data were processed

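The deposited table holds probe-set intensity values on a linear scale in arbitrary units, with 8722 exact zeros and none negative, and the sources used here do not state the authors' software, background correction or scaling. The members and gene lists were chosen with earlier results of these data known. Of 12422 probe sets other than controls, 10833 had 1 symbol, and 10817 matched a RefSeq gene table of GRCm38.p6 by Entrez number, which was used for names; promoter windows came from RefSeq in the same build. Values were floored at 20, since their 30th percentile was 11.9, log2 was taken and the 60% with the highest mean were tested. All 15 arrays entered 1 linear model with 4 group means, fitted with limma 3.58.1 in R 4.3.3 (lmFit, eBayes), with Benjamini-Hochberg adjustment over 7453 probe sets and a threshold of 0.05. The code of the fit was checked on simulated data with changes larger than the averaged changes of the members. That check does not measure the power for changes as small as theirs. Exact permutations exchanged operation labels within each sex; correlations used random permutations of the arrays. Precision is limited by how many arrays there are.

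The 2 probe sets under the filter on dim values were those of Bid and Bcl2 98868_at. All member probe sets are named; from each list the 2 genes of smallest p for the averaged effect are named, with the single most correlated gene for each member. Sham and TAC titles share replicate numbers. Deviations of same-numbered arrays correlated by 0.244, 0.270 and 0.117 in females and by 0.0641, -0.0828 and 0.0136 in males, so the replicate number entered only as an alternative block. Further alternatives were quantile normalization, scaling to one median, a lower floor, an offset, other filters, trended and robust eBayes, array weights, fits of the compared groups alone and leaving out each array. No 2 arrays held identical values.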

Additional observations from a re-analysis of the deposited data

How the results depend on the processing

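Limma called no member probe set in any of the 5 comparisons under any alternative, and the smallest adjusted p of a member anywhere was 0.204. Of 673 alternative values of 27 member changes 639 kept their direction, and the 34 that turned were uncalled before and after. Many of the 673 could not turn. Leaving out an array of 1 sex leaves the change within the other sex as it was, and the filter and eBayes settings leave every change as it was. With array weights the averaged change was -0.046 for Bcl2 98869_g_at, -0.051 for Bcl2l1 99026_at and 0.017 for Bcl2l1 99027_at, and the female change of Bcl2l1 99026_at was -0.16. With arrays scaled to one median the averaged change of Mcl1 was 0.043 and the female change of Bcl2 98870_at 0.026. With the replicate block in both sexes the male change of Bad 161500_i_at was 0.025 and the female minus male TAC effect of Bnip3 was -0.025. The block changed no call of a member. With the floor at the 10th percentile Bid had 0.025 (exact permutation p = 0.955), against -0.003 with the floor of 20, where all but 1 of its values were equal.

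Leaving out each array gave averaged changes of -0.12 to 0.07 for Mcl1, -0.08 to 0.13 for Bcl2 98869_g_at, -0.044 to 0.17 for Bcl2l1 99026_at and -0.17 to 0.026 for 99027_at. Female changes ran from -0.13 to 0.25 for Mcl1, -0.10 to 0.01 for Bcl2 98870_at, -0.19 to 0.25 for Bcl2l1 99026_at and -0.054 to 0.34 for 99027_at. Male changes ran from -0.21 to 0.013 for Bad 161500_i_at, -0.22 to 0.042 for Mcl1, -0.34 to 0.089 for Bcl2 98869_g_at and 0.14 to 0.53 for Bnip3. The female minus male TAC effect of Bnip3 ran from -0.13 to 0.27. Gabarap ran from -1.02 to 0.044 and Akt2 from -0.65 to 0.003.

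Over all probe sets limma called 24 in the averaged effect, with 45 after quantile normalization, 45 after scaling to one median, 10 with the lower floor, 13 without the filter, 68 with array weights, 8 with the replicate block in both sexes and 12 to 29 without 1 array. In females it called 6, with 10 under trended and robust eBayes, 36 with array weights, 3 with that block and 2 to 8 without 1 array. In males it called 10, with 18 after scaling, 3 with the lower floor, 6 with the offset, 4 without the filter, 16 under trended and robust eBayes, 3 with the block and 3 to 12 without 1 array. In the sex difference of sham hearts it called 0, with 2 without the filter, 1 under trended and robust eBayes and 2 with array weights. The cause was not tested. Bnip3 was not tested among the brightest 40%. Values near the floor, among them those of Bnip3, Bad, Bid, Bak1, Cradd and E2f1, are limited by signal over background.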

Other observations

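A pair of genes in the lists stood out through 1 array and were chosen after their values were seen. Gabarap, a ubiquitin-like protein of the autophagosome, had an averaged log2 change of -0.66 ± 0.47 (SE, adjusted p = 0.810 in limma), with 10.5 on female TAC 1 and 301 to 381 on the other TAC arrays, against 263 to 435 on the sham arrays. Akt2, a kinase of the insulin pathway, had -0.43 ± 0.30 (SE, adjusted p = 0.808 in limma), with 7.75 on female TAC 1 and 110 to 122 on the other TAC arrays, against 85.2 to 137 on the sham arrays. Without female TAC 1 the changes were 0.04 and 0.003. On that array 48.4% of the probe sets were under the floor, the highest share of the 15, and its median correlation with the other arrays was 0.956, the lowest of the 15.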
